A study of Hydra vulgaris with 22 samples.

Results

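The 200 transcripts described here are those whose level varied least across the stem cells of the freshwater polyp Hydra vulgaris, among transcripts of middle abundance. The deposited table counts reads on 61501 assembled sequences, here called contigs. Contigs whose identifiers differ only in the final isoform number were added up, which gave 44306 sums, here called stems. Levels are CPM, counts relative to the size of the library. Library sizes were first adjusted by TMM, which evens out differences in library composition. Of all stems, 2281 averaged from 50 to under 500 CPM over 20 libraries of sorted cells, and the 200 with the lowest coefficient of variation (CV, the SD divided by the mean) are the members. The same sorted values chose the members, so levels and group differences of stem totals in these libraries are a description and carry no test.

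All animals were of strain AEP, and cells came from the central part of the body column, with head and foot regions left out. Stem cell populations were sorted on eGFP, a fluorescent reporter, and RNA was read as polyadenylated, strand-specific Illumina TruSeq libraries. Epidermal epithelial stem cells (eESC) and gastrodermal epithelial stem cells (gESC) came from actin::eGFP animals, unfed for 10 days in eESC_10d (n = 4) and gESC_10d (n = 3), or for 3 days in eESC_3d and gESC_3d (n = 3 each). Interstitial stem cells (ISC) came from cnnos1::eGFP animals, as a medium eGFP gate (ISC_medium, n = 3, at 5, 3 and 3 days for replicates A to C) and a high one (ISC_high, n = 4, at 2, 3, 3 and 5 days for replicates A to D). The reference for all of them is unsorted body column at 10 days (body_10d, n = 2), with 1 library of an actin::eGFP line and 1 of the cnnos1::eGFP line. The label of that last library names gESC as its eGFP cells, which leaves only its line as a name here. Each population was sorted from its own transgenic line, so a difference between the populations and one between the lines cannot be told apart in the sorted libraries. Nothing states whether replicates were separate cultures, so p-values measure the spread between these libraries, which may be technical.

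Hydra's body wall is built by an outer and an inner epithelium, each renewed by its own stem cells, while interstitial stem cells give rise to nerve cells, stinging cells, gland cells and gametes. All of these stem cells cycle throughout the life of the animal. Transcripts that keep a like level in unlike cells often encode functions that every cell needs, and such transcripts are used as internal standards when others are compared. None of the identifiers could be paired with a gene name (0 of 61501 contigs and 0 of 44306 stems matched a reference table of 28925 genes). Members are therefore given by identifier, without a function, and no pathway list could be applied. In identifiers of this form a stem usually stands for one gene-like cluster, and its contigs for splice forms, alleles or pieces of one transcript. Which of these they are is not given in the sources used here.

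The sorted libraries held 17159718 to 31723680 counts and fell into 2 depth classes. The 12 deeper ones held at least 25195891 counts and comprised every eESC_10d, gESC_10d and ISC_high library and gESC_3d replicate C. The 8 shallower ones held at most 20327106 counts and comprised every eESC_3d and ISC_medium library and gESC_3d replicates A and B. The body column libraries were smaller still, with 15457132 counts in the actin line and 13971099 in the cnnos1 line. A member averaged 1227 to 12263 counts per library, and its smallest count in any sorted library was 545. Counting error alone would give a CV of 0.960 to 3.06%. These figures leave out all error but that of counting, because reads were not marked by molecule. Whether depth class bears on the stem totals was not tested.

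Within the members the CV ran from 9.32 to 22.7%, with a median of 19.5%. The other 2081 stems of the same level range had CVs of 22.7 to 242% and a median of 48.3%. The members spread over the whole range of levels, from 50.3 to 489 CPM with a median of 103.9 CPM, and 96 of them averaged under 100 CPM. A member's highest library stood 1.39 to 3.11 times above its lowest, with a median ratio of 2.01. Its highest group mean stood 1.10 to 1.99 times above its lowest, and this ratio was under 1.5 for 87 members. The boundary of the set is not a gap. The last 2 members, c24030_g1 and c20165_g1, had CVs of 22.64 and 22.67%, and the stems just outside, c24946_g2 and c18262_g1, had 22.68 and 22.78%. Among stems at least as steady but outside the level range, 357 lay under 50 CPM and 53 at or over 500 CPM. The nearest were c20047_g1 at 49.7 CPM and c24596_g1 at 509.7 CPM.

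**Figure D1:**
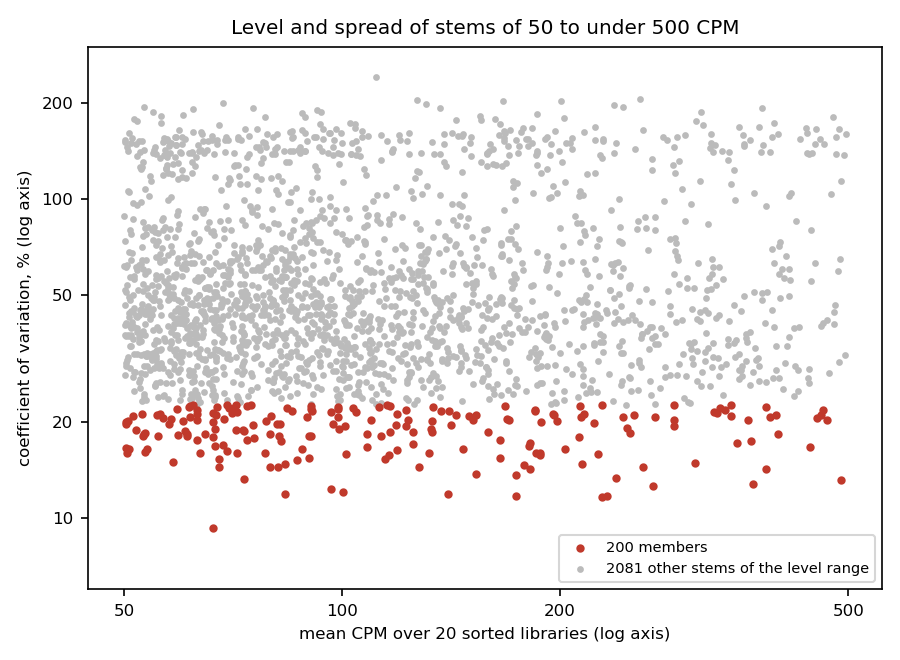
Mean CPM over the 20 sorted libraries (x, log axis) against the coefficient of variation in percent (y, log axis) for 2281 stems of 50 to under 500 CPM. The 200 members (red) lie along the lower edge of the cloud at CVs of 9.32 to 22.7%, at every level of the range, and the other 2081 stems (grey) continue above them without a gap.

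The steadiest member was c15864_g1, a stem of 2 contigs, at 66.4 ± 6.19 CPM (SD, n = 20 libraries). Its values were 76.0, 63.7, 64.1 and 69.7 CPM in eESC_10d, 70.1, 57.0 and 61.5 CPM in eESC_3d, 72.9, 63.3 and 60.4 CPM in gESC_10d, 72.0, 68.0 and 58.3 CPM in gESC_3d, 79.3, 69.9 and 63.0 CPM in ISC_medium, and 62.0, 59.1, 72.3 and 65.1 CPM in ISC_high. All 6 groups overlapped, and their means ran only from 62.9 CPM in eESC_3d to 70.7 CPM in ISC_medium. Next in order was c23654_g1 at 228 ± 26.6 CPM, with a CV of 11.7%. Its group means differed least of all members in ratio, at most 1.10-fold, with 239.7 ± 24.3 CPM in eESC_10d (n = 4) at the high end and 217 ± 10.8 CPM in eESC_3d (n = 3) at the low end.

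Further members among the 10 steadiest were c19143_g1 at 174 CPM, c10057_g1 at 232 CPM, c25549_g1 at 140.2 CPM, c19674_g1 at 83.5 CPM, c21556_g1 at 100.2 CPM, c18622_g2 at 96.7 CPM, c21785_g1 at 269 CPM and c22584_g1 at 369.5 CPM. Their CVs were 11.7 to 12.8%. Steadiness over the 20 libraries did not always mean overlapping groups. In c22584_g1 the ISC_medium libraries held 285, 322 and 274 CPM and every eESC_10d library held more, with 458, 378, 394 and 421 CPM. In c25549_g1, a stem of 10 contigs, the ISC_medium libraries held 113, 124 and 108 CPM, while the lowest of the 13 epithelial libraries held 134 CPM.

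**Figure D2:**
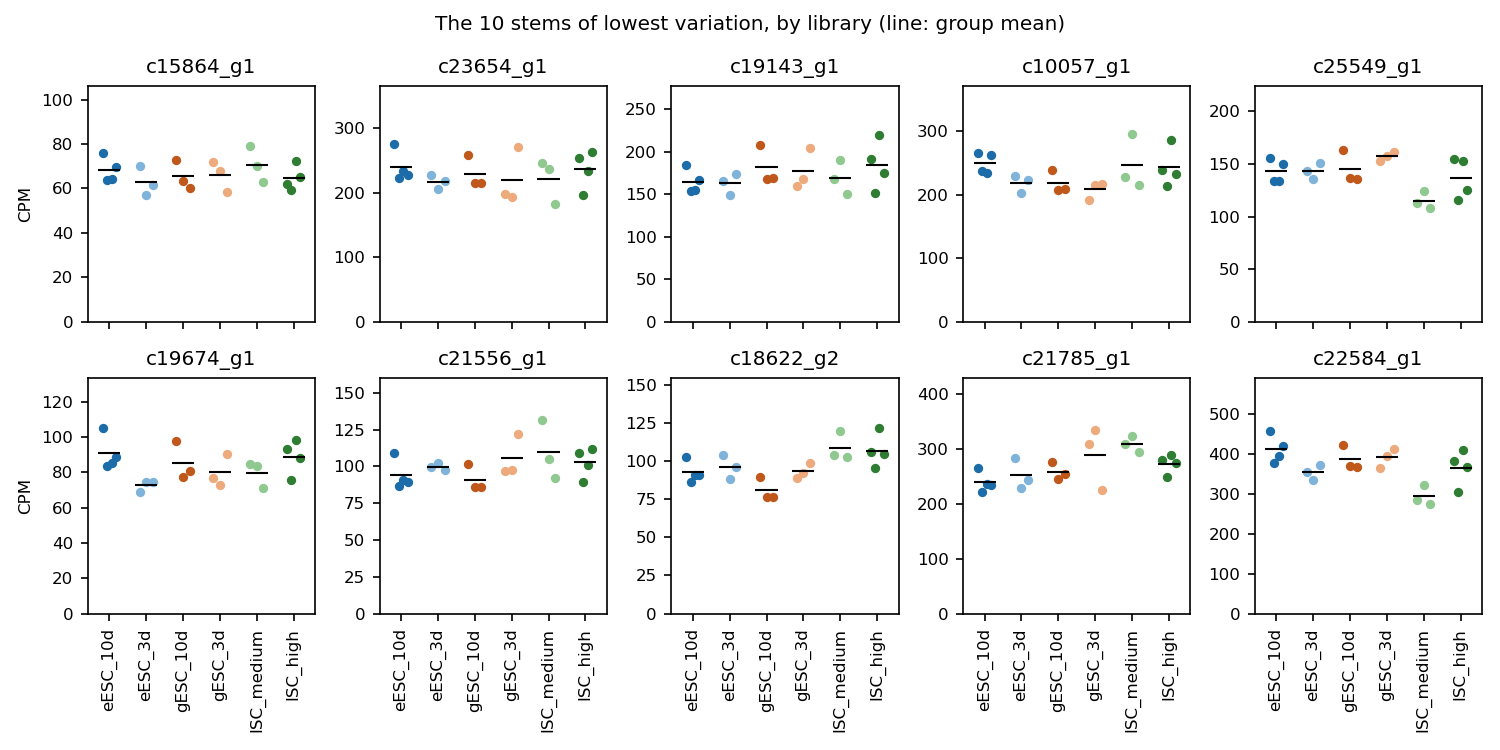
CPM of the 10 members with the lowest CV (y, starting at 0, a scale of its own in each panel) in each of the 20 sorted libraries, grouped by population and time or gate (x), with a line at each group mean. Points of different groups overlap in most panels, as for c15864_g1 between 57.0 and 79.3 CPM, while ISC_medium sits low for c25549_g1 and c22584_g1.

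At the upper end of the level range stood c25239_g1 and c25595_g1, at 489 ± 64.4 and 467 ± 94.6 CPM (SD, n = 20). They varied in different ways. In c25595_g1 the 3-day epithelial libraries were high, with 644, 497 and 575 CPM in eESC_3d and 599, 669.7 and 501 CPM in gESC_3d, and ISC_high was low, with 446, 313, 406 and 396 CPM. In c25239_g1 the eESC_3d libraries were low instead, with 468, 374 and 404 CPM. The members of lowest level were c23170_g1 and c4618_g1, both at 50.3 CPM, with SDs of 8.37 and 9.92 CPM. In c4618_g1 the ISC_medium libraries held 34.6, 39.3 and 29.4 CPM, and every eESC_10d library held more, with 56.5, 58.1, 62.0 and 66.7 CPM.

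The rule chose a low total variance over these same libraries. How that variance divides therefore follows in part from the rule and is given as a description. Differences between the 6 groups made up a median of 63.7% of a member's variance, against 89.6% for the other stems. The CV within groups was a median of 12.6% for members and 18.4% for the others. Members at the extremes show what these shares mean. In c22459_g1 groups accounted for 91.2% of the variance: the interstitial libraries held 168 to 198 CPM in ISC_medium and 181 to 218 CPM in ISC_high, above the 13 epithelial libraries at 115 to 153 CPM. In c22882_g1 (91.0%) ISC_high stood at 620.2 ± 50.8 CPM (n = 4), above all other libraries, and eESC_3d at 333 ± 19.1 CPM (n = 3). In c19484_g1 (88.8%) ISC_high was again highest, at 232 ± 14.7 CPM, and eESC_3d lowest, at 143 ± 8.28 CPM.

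At the other extreme, groups accounted for 6.60% of the variance of c22478_g1, 9.06% of that of c21095_g1 and 10.3% of that of c19442_g1. In these members replicates of 1 group differed as much as the groups did. For c22478_g1 the gESC_3d libraries held 72.8, 70.5 and 116 CPM and the ISC_medium libraries 109.8, 65.3 and 60.1 CPM, while the group means ran only from 78.4 to 91.0 CPM. The high gESC_3d library was replicate C, the one of the deeper class. The same replicate was the high one of its group in c19442_g1, with 96.7 CPM against 57.9 and 60.9 CPM, and the low one in c21095_g1, with 62.7 CPM against 84.9 and 91.1 CPM.

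Part of the members' residual spread was shared by whole libraries. The median deviation of the 200 members from their own means, on the log2 scale, ran from -0.20 in ISC_high replicate B to 0.20 in ISC_medium replicate B. In ISC_high B, whose TMM factor of 1.29 was the highest of the sorted libraries, 39 members lay above their own mean, against 142 in ISC_medium B. ISC_high B was the lowest of the 20 libraries for 41 members, and ISC_medium A was the highest for 35. Dividing each library by the members' median deviation lowered the median CV to 17.2%, while the highest CV rose from 22.7 to 25.7%. The divisor came from these same members, so some of the fall is built in. Leaving out 1 library at a time and repeating the selection returned between 167 and 194 of the 200 members.

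**Figure D3:**
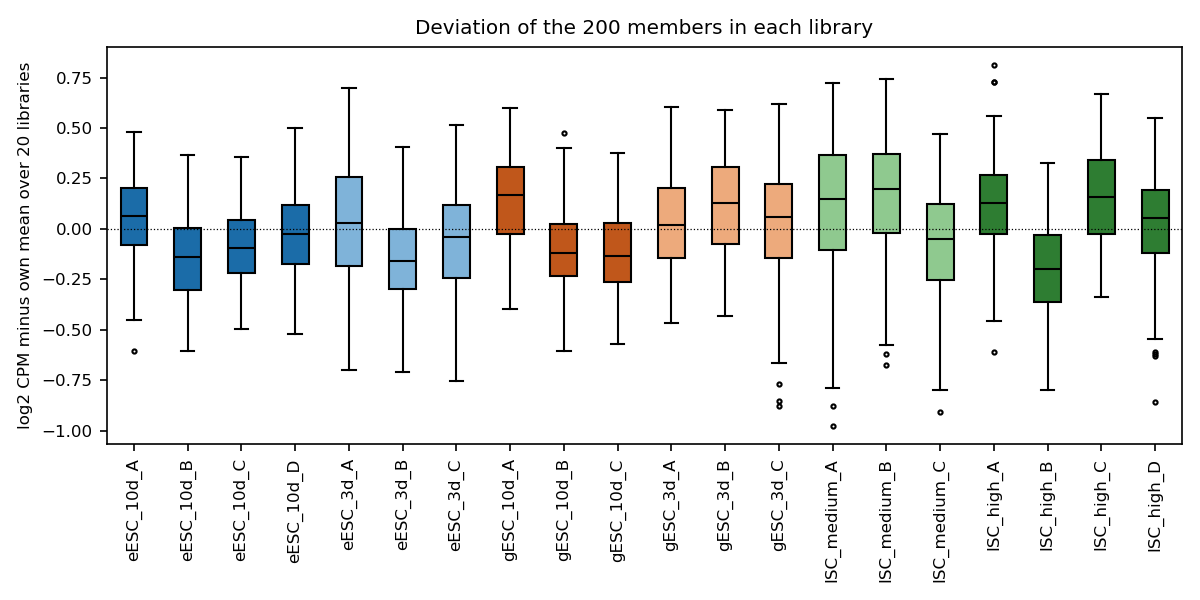
Deviation of each of the 200 members from its own mean over the 20 sorted libraries (y, log2 CPM), as 1 box per library (x; line, median; box, quartiles; whiskers, values within 1.5 box lengths; points, values beyond). The medians run from -0.20 in ISC_high_B to 0.20 in ISC_medium_B, and replicates of 1 group lie on both sides of 0 in every group but gESC_3d.

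Between groups, the members' median difference was small, from -0.12 on the log2 scale in eESC_3d against gESC_3d to 0.046 in ISC_medium against ISC_high. The group mean was highest in ISC_medium for 59 members, in ISC_high for 42, in gESC_3d for 39, in eESC_3d for 24, in eESC_10d for 20 and in gESC_10d for 16. It was lowest in eESC_3d for 59, in gESC_10d for 39, in eESC_10d for 36, in ISC_medium for 32, in ISC_high for 24 and in gESC_3d for 10. No member (0 of 200) reached a 2-fold difference between group means in any of the 7 comparisons of 2 sorted groups described below. Between 10 and 3 days in gESC all 200 members stayed within 1.5-fold, and in gESC_10d against ISC_high, the comparison with the fewest such members, 182 did. The largest differences were c16884_g1, lower in ISC_medium than in ISC_high by a log2 difference of -0.88, and c20246_g1, lower in eESC_10d than in ISC_high by -0.85; both were chosen after their values were seen.

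The unsorted body column was not used to choose the members, but the sorted arm of each comparison with it was. A transcript steady over all sorted groups has less room to depart from a shared body column in each, so the members' share of calls follows in part from the rule and is given as a description. In each of 3 comparisons most members were not called, and most called differences were under 2-fold. All stems were set in one fit of 22 libraries (19788 stems tested; edgeR quasi-likelihood F test, Benjamini-Hochberg adjusted p under 0.05), which all 200 members entered. In eESC_10d against body_10d, 38 members were called higher and 26 lower, 19% and 13% of the members, where 20.7% and 25.4% of all stems tested were called higher and lower. In gESC_10d, 46 members were higher and 20 lower, or 23% and 10%, against 18.2% and 25.8% of all stems. In ISC_high, 70 were higher and 16 lower, or 35% and 8%, against 24.3% and 41.1%. Either way, 32, 33 and 43% of the members were called in these 3 comparisons, and 57.1, 49.4 and 81.6% of the other stems of the level range; nothing is read from this difference. These comparisons share the body column libraries, so they are not independent of each other. In bulk tissue, fewer cells of a type and less RNA per cell cannot be told apart. All 3 comparisons also set sorted cells against unsorted tissue. ISC_high was unfed for 2 to 5 days and the body column for 10, so population and days unfed cannot be told apart there.

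The median log2 fold change of the members was 0.0038 in eESC_10d, 0.076 in gESC_10d and 0.25 in ISC_high, where that of all stems tested was 0.064, 0.071 and -0.33. A called difference of at least 2-fold was reached by 6 members in eESC_10d, 4 in gESC_10d and 11 in ISC_high. The split of the calls depended on the scaling. With library size alone, which moved the median of all stems to 0.60, 0.45 and 0.22, 140, 113 and 170 members were called higher and 5, 2 and 0 lower, and the median of the members was 0.54, 0.45 and 0.85. The counts also rest on the body column library of the cnnos1 line. Without it, 28 members were called in eESC_10d and 30 in gESC_10d, and without that of the actin line 42 were called in gESC_10d.

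The libraries were also compared without a model. In 20 members (10%) both body column libraries lay below all 20 sorted libraries, where 6.49% of all stems of the level range and 3.23% of all stems tested did. In 3 members (1.5%), c12806_g1, c1030_g1 and c20732_g1, both lay above all 20, where 2.67% of the level range and 7.25% of all stems tested did. The rule favours a narrow sorted range, outside which a body library falls more easily, so these shares are not read against each other. With library size alone the members' counts were 80 below and 0 above.

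Members called the same way in each of the 3 comparisons were ranked by their mean log2 fold change, and the 4 at either end are named. On the high side was c21560_g1, a stem of 6 contigs, with 66.0, 72.6, 65.9 and 80.8 CPM in eESC_10d, 69.3, 58.0 and 62.2 CPM in gESC_10d and 68.5, 68.5, 78.7 and 72.3 CPM in ISC_high, against 33.9 and 25.2 CPM in the body column. Every sorted library of these groups held more than either body library, and the log2 fold changes were 1.22 ± 0.19, 1.10 ± 0.20 and 1.35 ± 0.20 (SE; edgeR adjusted p 5.7e-05, 0.00018 and 4.9e-06). In c25038_g1 the levels were 52.5, 49.3, 50.9 and 56.4 CPM in eESC_10d, 65.1, 58.3 and 55.4 CPM in gESC_10d and 52.5, 38.0, 49.8 and 44.0 CPM in ISC_high, against 25.5 and 21.8 CPM in the body column. Its largest fold change was in gESC_10d, at 1.34 ± 0.19 on the log2 scale (edgeR adjusted p 8.2e-06). Both of these members had body libraries below all 20 sorted ones.

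The most abundant member, c25239_g1, was the third of this kind. It held 567, 465, 496 and 504 CPM in eESC_10d, 506, 429 and 432 CPM in gESC_10d and 561, 459.9, 593 and 502 CPM in ISC_high, against 263 and 216 CPM in the body column. Its log2 fold changes were 1.04 ± 0.16, 0.93 ± 0.16 and 1.21 ± 0.16 (SE; edgeR adjusted p 3.5e-05, 0.00011 and 1.3e-06). The fourth, c23840_g1, held 299, 323, 343 and 337 CPM in eESC_10d, against 188 and 157 CPM in the body column, with a log2 fold change of 0.87 ± 0.28 (edgeR adjusted p 0.016). Its call in eESC_10d was lost without either body library (adjusted p 0.052 and 0.098), and among all 20 sorted libraries its range of 175 to 479.8 CPM overlapped the body column.

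On the low side, c20732_g1, a stem of 3 contigs, held 122, 94.1, 98.1 and 101 CPM in eESC_10d, 167, 117 and 115 CPM in gESC_10d and 123, 87.0, 112 and 120.2 CPM in ISC_high, against 181 and 234 CPM in the body column. All of these sorted libraries were lower than both body libraries. The log2 fold changes were -1.05 ± 0.21, -0.65 ± 0.22 and -0.85 ± 0.21 (SE; edgeR adjusted p 0.00039, 0.023 and 0.0013). In c15091_g1, of 1 contig, the eESC_10d libraries held 62.1, 50.3, 52.9 and 54.7 CPM, against 112 and 108.5 CPM in the body column, a log2 fold change of -1.05 ± 0.15 (edgeR adjusted p 2.7e-05). Its fold change in ISC_high was smaller, at -0.45 ± 0.16, and became 0.14 when libraries were scaled by size alone.

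The other 2 were c22049_g1 and c18832_g1. In c22049_g1 the gESC_10d libraries held 49.5, 41.9 and 44.3 CPM, against 89.2 and 85.9 CPM in the body column, a log2 fold change of -0.95 ± 0.21 (edgeR adjusted p 0.0010). In c18832_g1 the eESC_10d libraries held 74.98, 69.4, 74.7 and 83.3 CPM, against 115 and 151 CPM in the body column, a log2 fold change of -0.87 ± 0.21 (edgeR adjusted p 0.0028). The fold changes of these 2 members in ISC_high, -0.51 ± 0.20 and -0.58 ± 0.22, became 0.077 and 0.021 when libraries were scaled by size alone. One member was called both ways: c22459_g1 was higher in ISC_high than in the body column by 0.48 on the log2 scale and lower in eESC_10d by -0.33.

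**Figure D4:**
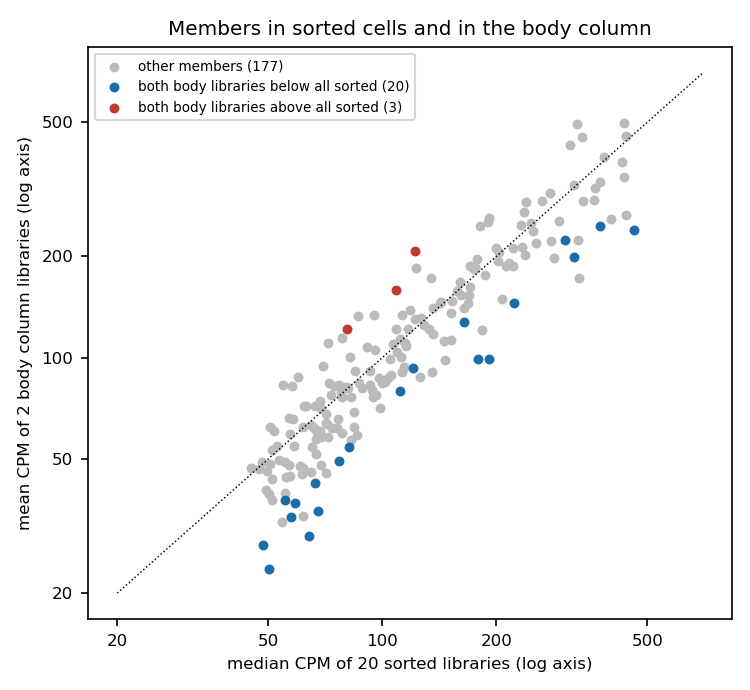
Median CPM of the 20 sorted libraries (x, log axis) against the mean CPM of the 2 body column libraries (y, log axis) for the 200 members, with a dotted line where both are equal. In 20 members (blue) both body libraries lie below every sorted library, in 3 (red) both lie above, and the others (grey) follow the line.

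Of the 10 steadiest members, c19143_g1 and c10057_g1 also had both body libraries below every sorted library. In c19143_g1 the body libraries held 136 and 119 CPM, and the lowest sorted library 146 CPM. The other was c10057_g1. Its 2 body libraries held 155 and 136 CPM, below the lowest sorted library at 187 CPM, and its log2 fold changes were 0.70 ± 0.15 in eESC_10d, 0.56 ± 0.15 in gESC_10d and 0.77 ± 0.15 in ISC_high (SE; edgeR adjusted p 0.00075, 0.0062 and 0.00014). The steadiest of all, c15864_g1, was not called: its body libraries held 73.4 and 70.2 CPM, and its log2 fold changes were -0.16 ± 0.15, -0.17 ± 0.15 and -0.13 ± 0.15 (edgeR adjusted p 0.39, 0.39 and 0.46).

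The rule looked only at the total of a stem, so how that total was divided among its contigs is a separate measurement. Of the members, 106 had 1 contig and 94 had more: 58 had 2, 19 had 3 and 17 had 4 or more. Single-contig stems were 53% of the members, 49.9% of the other stems of the level range and 80.0% of all stems. In 62 of the 94 (66.0%) the same contig led in all 20 sorted libraries, where it did in 618 of 1042 other stems of the range (59.3%). In 21 members 1 contig held over 90% of the total everywhere. Beneath steady totals, however, the leading contig could vary widely. Its CV had a median of 22.3% over the 94 members, ran from 11.7 to 94.1% and was over 50% in 10 of them. The rule itself held every stem total at or under 22.7%. The CV of the leading contig was not computed for other stems.

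Contig usage was tested between 7 pairs of sorted groups (edgeR diffSpliceDGE, a test of whether contigs of a stem change by different folds, on the 20 sorted libraries and 5929 stems; adjusted p under 0.05). Of the 94 members, 88 kept at least 2 contigs after the filter on low counts. An adjusted p printed beside a contig is that of its whole stem. In eESC_10d against gESC_10d, 16 of the 88 (18.2%) were called, where 20.7% of all stems tested were. In eESC_10d against ISC_high, 21 were called (23.9%, against 24% of all), and in gESC_10d against ISC_high, 27 (30.7%, against 21.3%). Among other stems of the level range, 26.1, 33.1 and 28.1% were called in these comparisons. The 2 tests with ISC_high also set 10 days unfed against 2 to 5 days, which cannot be told apart from population in them. A called change of at least 20 percentage points in the share of a contig was seen in 7, 7 and 11 members (7.95, 7.95 and 12.5% of the 88), where 13.7, 15.1 and 13.2% of all stems tested had one. The shares called in the first 2 comparisons lie near those of all stems tested and are no feature of the members. Contigs of a stem can share sequence, and how reads that fit several contigs were divided is not given in the sources used here, so shares of similar contigs are uncertain. On simulated counts the usage test made 31 false calls beside 4 and 36 true ones. That is more than its threshold allows, so single calls are uncertain as well.

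The widest change of all was in c20957_g1, a stem of 2 contigs with a total CV of 15.2%. Contig c20957_g1_i01 made up 59.6, 56.8, 64.6 and 64.3% of the total in eESC_10d, 51.1, 51.6 and 29.9% in eESC_3d, 100, 99.8 and 99.9% in gESC_10d, 100, 100 and 97.9% in gESC_3d, 0, 0 and 0% in ISC_medium and 0.23, 0, 0.51 and 0.46% in ISC_high. The 3 populations did not overlap at all, and the counts of 0 in ISC_medium allow a share of up to 0.188 to 0.21%. The mean difference was 99.6 percentage points in gESC_10d against ISC_high and 61.0 points in eESC_10d against ISC_high (edgeR adjusted p 4.4e-13 and 6.1e-10). The CV of this contig over the 20 libraries was 94.1%.

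Contig c12806_g1_i01, again of a stem of 2 contigs, had the same order. It held 73.4, 66.2, 66.5 and 76.0% of the total in eESC_10d, 71.6, 61.7 and 62.0% in eESC_3d, 100% in all 3 libraries of gESC_10d and all 3 of gESC_3d, 14.2, 2.20 and 0% in ISC_medium and 0.25, 0, 15.2 and 5.08% in ISC_high. Here too the populations did not overlap, and the total of the stem had a CV of 15.8%. The difference was 94.9 points in gESC_10d against ISC_high and 65.4 points in eESC_10d against ISC_high (edgeR adjusted p 8.7e-08 and 0.00075). In c22946_g1, of 3 contigs, contig c22946_g1_i03 held 47.0, 70.6 and 50.1% in ISC_medium and 99.2, 81.8, 41.0 and 78.0% in ISC_high, but at most 3.10% in any of the 13 epithelial libraries (edgeR adjusted p 3.3e-05 in eESC_10d and 0.00026 in gESC_10d against ISC_high).

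These 3 contigs also differed between the 2 unsorted body columns, which come from different lines. For c20957_g1_i01 the share was 44.0% in the actin line (95% Wilson interval 41.1 to 46.9%) and 0 of 1129 counts in the cnnos1 line, which allows up to 0.266%. For c12806_g1_i01 it was 61.9% in the actin line (59.7 to 64.0%) and 0 of 1586 counts in the cnnos1 line, which allows up to 0.189%. For c22946_g1_i03 it was 1.21% in the actin line (0.827 to 1.77%) and 99.8% in the cnnos1 line (99.5 to 99.9%). In each case the body column of the cnnos1 line lay at or beyond the interstitial libraries, which are of that line, while a whole body column holds epithelial cells as well. With 1 library per line this has no replicate check. Over all called stems of at least 20 points, the body column of the actin line was nearer to the epithelial group than to ISC_high in 78.6% (eESC_10d against ISC_high) and 67% (gESC_10d against ISC_high). That of the cnnos1 line was nearer to ISC_high than to the epithelial group in 44.3 and 44.8%. Among the members the counts were 6 of 7 and 7 of 11 for the actin line, and 4 of 7 and 7 of 11 for the cnnos1 line. In eESC_10d against gESC_10d, the body column of the actin line was nearer to eESC_10d in 62.7% of such stems and 6 of 7 members. That of the cnnos1 line was nearer to gESC_10d in 48.6% and in 1 of 7 members.

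Between the epithelial layers, c24030_g1 changed most. Its contig c24030_g1_i03 held 22.6, 26.6, 23.1 and 24.1% in eESC_10d, against 92.9, 93.7 and 93.1% in gESC_10d, and 0, 24.9 and 16.2% in eESC_3d, against 97.3, 97.3 and 93.8% in gESC_3d. The difference was -69.2 points at 10 days and -82.4 points at 3 days (edgeR adjusted p 0.00015 and 3.9e-05). In c24057_g1, contig c24057_g1_i01 held 69.0 ± 4.42% in eESC_10d (n = 4) and 23.2 ± 1.52% in gESC_10d (n = 3), and 84.2 ± 2.24% in eESC_3d and 46.8 ± 19.9% in gESC_3d (n = 3 each). Contig c24057_g1_i02 of the same stem had no count in the 4 eESC_10d libraries, which allows up to 0.0498 to 0.0674%, and held 39.8, 31.7 and 27.1% in gESC_10d. In c19916_g1, contig c19916_g1_i03 held 97.5 ± 3.27% in eESC_10d and 55.6 ± 6.52% in gESC_10d, and 99.2 ± 0.27% in eESC_3d and 44.0 ± 12.2% in gESC_3d, a difference of 55.1 points at 3 days (edgeR adjusted p 2.8e-08).

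At 3 days, 22 of 88 members (25%) were called between the layers, where 21% of all stems tested were, and 5 changed by at least 20 points (5.68%, against 13.3% of all). Of these and the 16 called at 10 days, 10 were called at both times, 62.5% of those at 10 days and 45.5% of those at 3 days, and all 10 changed in the same direction. Over all stems tested, those called at both times were 62.2% of those at 10 days and 61.3% of those at 3 days, and 96.7% of them changed in the same direction. The 2 comparisons share no library, but both set the line of eESC against that of gESC. Layer and line therefore cannot be told apart at either time.

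**Figure D5:**
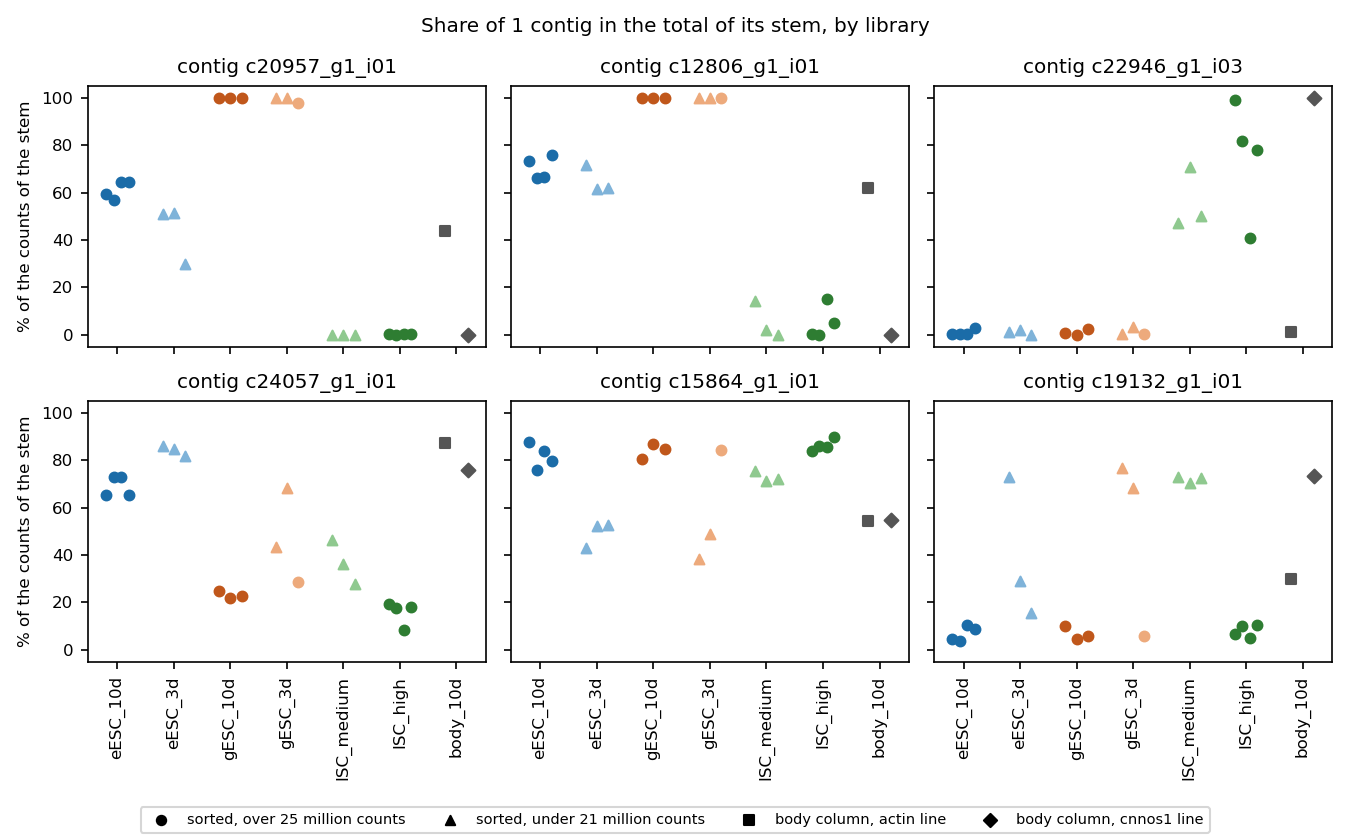
Share of 1 contig in the total of its stem (y, percent) for 6 members, by library (x, grouped; circles, sorted libraries of the deeper class; triangles, the shallower class; square, body column of the actin line; diamond, body column of the cnnos1 line). The shares of c20957_g1_i01 and c12806_g1_i01 separate gESC, eESC and ISC, those of c22946_g1_i03 separate ISC from both epithelia, and those of c15864_g1_i01 and c19132_g1_i01 separate circles from triangles, with the gESC_3d circle away from the gESC_3d triangles.

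The other 3 comparisons, of gates and of times, change the depth class along with the group. In ISC_medium against ISC_high, 36 of 88 members (40.9%) were called, where 19.7% of all stems and 35.2% of the other stems of the level range were. In eESC_10d against eESC_3d, 31 (35.2%) were called, against 13.6% of all and 26.9% of the range. In gESC_10d against gESC_3d, 7 (7.95%) were called, against 3.9% of all and 6.22% of the range. A change of at least 20 points was seen in 14, 11 and 5 members (15.9, 12.5 and 5.68%), where 9.95, 5.68 and 1.53% of all stems tested had one. With a term for the depth class in the fit, 13, 6 and 2 members were called, of which 10, 4 and 0 were among those above. That term can be estimated only within gESC_3d, the 1 group with libraries of both classes. The gESC count rests on single libraries: it was 23 without gESC_3d C, the deeper library of its group, and 1 to 4 without any other 1 of the 6. The eESC count was 16 without eESC_3d A.

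The steadiest member was among those whose division went with depth. Contig c15864_g1_i01 held 87.8, 75.9, 84.0 and 79.6% of the total in eESC_10d, against 43.1, 52.4 and 52.7% in eESC_3d, and 80.5, 86.8 and 84.5% in gESC_10d, against 38.3, 48.8 and 84.1% in gESC_3d. The 84.1% of gESC_3d belonged to replicate C, which lay with the 10-day libraries. ISC_medium held 75.5, 71.4 and 72.1%, against 83.8, 85.9, 85.5 and 89.9% in ISC_high. All 12 deeper libraries were thus above all 8 shallower ones, and the body columns held 54.4% in the actin line and 54.7% in the cnnos1 line. The difference was 32.4 points between times in eESC and 26.9 points in gESC (edgeR adjusted p 0.00027 and 0.0064, and 1 in gESC with the depth term).

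Contig c19132_g1_i01 behaved alike with the sign turned. It held 72.8, 70.2 and 72.5% in ISC_medium, against 6.72, 9.95, 4.84 and 10.4% in ISC_high. It held 4.48, 3.85, 10.5 and 8.88% in eESC_10d, against 72.9, 29.1 and 15.6% in eESC_3d, and 10.1, 4.63 and 5.81% in gESC_10d, against 76.6, 68.1 and 5.78% in gESC_3d, the last being replicate C. The difference between the gates was 63.8 points (edgeR adjusted p 3.4e-05, and 0.89 with the depth term). In c23457_g1, of 7 contigs, contig c23457_g1_i03 held 55.5, 51.2, 49.9 and 44.1% in eESC_10d, against 1.83, 6.01 and 10.7% in eESC_3d (edgeR adjusted p 7.3e-05). Its gESC_3d libraries held 0.20, 0 and 39.8%, the last again in replicate C.

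Contig c24358_g1_i03, of 3, held 8.91, 11.4, 14.6 and 7.57% in eESC_10d, against 61.0, 45.8 and 44.1% in eESC_3d, a difference of -39.7 points (edgeR adjusted p 0.038). Its gESC_3d libraries held 65.8, 55.0 and 11.9%, again with replicate C on the side of the deeper libraries. The call in eESC was lost without any 1 of the 7 libraries (adjusted p 0.060 to 0.17) and with the depth term (adjusted p 1). Between the gates, ISC_medium held 50.7 ± 4.32% (n = 3) and ISC_high 4.01 ± 7.40% (n = 4; edgeR adjusted p 7.0e-06).

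In 11 of the 94 members of several contigs (11.7%), the share of the leading contig set all 12 deeper libraries apart from all 8 shallower ones, where it did in 8.54% of the other 1042 stems of the level range and in 2.82% of all stems tested for usage. Of the members called between the gates and between the times in eESC, comparisons that share no library, 15 were called in both, 41.7% of the first and 48.4% of the second. In 13 of those 15 (86.7%), the most changed contig moved the same way with depth. Over all stems tested, those called in both were 30.5% of the first and 44.1% of the second, and 86.2% of them moved the same way. For c15864_g1, c19132_g1 and c23457_g1 the values within gESC_3d go with depth at 1 time and in 1 population. The deeper class there is replicate C alone, so depth and any other property of that library cannot be told apart. Elsewhere depth class and group cannot be told apart.

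Contig c14594_g1_i03 went with the depth class within each population, at levels that differed between populations. It held 8.28, 10.4 and 13.0% in ISC_medium, against 65.3, 88.2, 55.3 and 88.0% in ISC_high, a difference of -63.6 points (edgeR adjusted p 0.0025, and 0.61 with the depth term). It held 33.3, 47.7, 37.2 and 44.9% in eESC_10d, against 13.8, 7.91 and 25.6% in eESC_3d. In gESC it held 10.7, 8.84 and 25.3% at 10 days, against 1.73, 5.21 and 11.2% at 3 days, the last being replicate C of the deeper class. Within each population the deeper libraries were above the shallower ones, while over all populations the classes overlapped. The contigs of c25341_g1 were the least settled within groups: c25341_g1_i04 held 99.9, 92.2 and 1.19% in gESC_10d and 1.39, 98.4, 75.4 and 12.8% in ISC_high, while the total of that stem had a CV of 21.1%. It was called between the times in gESC (edgeR adjusted p 0.023), with a difference of 63.6 points that rests on 2 of the 3 gESC_10d libraries (adjusted p 0.061 without replicate A).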

How the data were processed

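The authors deposited raw counts for 61501 contigs in 22 libraries. A second deposited table holds signal: the counts of 26024 contigs, each library multiplied by 1 factor (largest relative deviation 6.3e-11), which served here only as an alternative scaling and to see that all 200 members have a contig in it. The submitters' processing notes name cutadapt 1.11, Salmon 0.7.2 and DESeq2, without roles. The transcriptome and the handling of reads shared by contigs are not given in the sources used here.

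Counts were summed per stem, and members were chosen by the rule above with TMM factors from the 20 sorted libraries. The members and the lists were chosen with earlier results of these data known. Body comparisons used edgeR 4.0.16 (quasi-likelihood F test) on all 22 libraries with 1 mean per group. Usage comparisons used diffSpliceDGE in edgeR on contig counts of the 20 sorted libraries. Both used TMM, filterByExpr (minimum count 10, minimum total 15) and Benjamini-Hochberg adjustment over all stems tested, in R 4.3.3. Levels set beside the body column use TMM factors over 22 libraries, so they differ slightly from those over 20. Shares are a contig's percentage of the counts of its stem. Wilson intervals are at 95%, and a count of 0 is given the limit of 3 counts; both cover counting error only.

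On simulated counts for eESC_10d against body_10d (17605 stems), 55 of 100 changes of 2-fold and 90 of 100 of 4-fold were called, with 4 false calls. For usage in eESC_10d against gESC_10d (5589 stems), 4 of 100 and 36 of 100 were called, with 31 false calls, so small usage changes are mostly missed. The 31 false calls are a larger share of all calls than an adjusted p under 0.05 allows. A single usage call is therefore less certain than its adjusted p. Named members are the 10 of lowest CV, the 2 highest and 2 lowest in level, the last 2 by CV and the first 2 outside, the 4 highest and 4 lowest in mean log2 fold change among those called the same way against the body column in all 3 comparisons, the 3 most changed contigs of each usage comparison, and the 3 with the largest and smallest between-group share of variance; any other is said to be chosen after its values were seen. No comparison was fitted as paired in the main results. In gESC_10d against ISC_high alone, the deviations of same-letter libraries from their group means correlated positively in every pair (0.395, 0.273 and 0.186 across stems). These groups come from different lines, so a shared letter does not stand for shared animals. No pair of libraries in a group agreed within sampling noise. Alternatives were other scalings and filters, DESeq2 1.42.0, limma 3.58.1, only the groups compared, the most abundant contig, a replicate block and leaving out each library. A term for the depth class was chosen after seeing the data.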

Additional observations from a re-analysis of the deposited data

Results flagged for a closer look

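In groups of 4 libraries, a library was marked where its gap to the nearest other exceeded Dixon's 95% critical value. Of 104 groups examined for the named members, 8 were marked, and chance marks about 1 in 20. Of stem totals, c24030_g1 stood at 72.8 CPM in eESC_10d A, against 89.1 to 91.2 CPM in the other eESC_10d libraries. In the same library c19132_g1 was high, at 299 CPM against 248.5 to 257 CPM. In ISC_high B, c12806_g1 was low, at 84.6 CPM against 107 to 111 CPM, and that library also had the lowest median level of the members.

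Of contig shares, c24057_g1_i01 held 8.24% of its stem in ISC_high C, against 17.5 to 19.4% in the other ISC_high libraries. In ISC_high B, c24358_g1_i03 held 15.1%, against 0 to 0.96% in the others. In eESC_10d, c22946_g1_i03 held 2.93% in replicate D against 0.19 to 0.39%, c19916_g1_i03 held 92.7% in replicate C against 99.1 to 99.4%, and c25341_g1_i02 held 93.5% in replicate B against 97.0 to 97.6%. For each of the 8, the part of the marked library in the comparisons was measured only by leaving it out.

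The change of contig usage between 10 and 3 days was also tested for a difference between eESC and gESC (edgeR diffSpliceDGE interaction). Of 5929 stems 127 were called, and 2 of the 88 members. One of them was a named member, c24057_g1 (edgeR adjusted p 0.0042, for all contigs of the stem together). The contig whose share differed most, c24057_g1_i01, changed by -15.2 points in eESC and by -23.6 points in gESC, a difference of 8.31 points. That contig was picked after the test and has no p-value of its own. Its gESC_3d libraries held 43.5, 68.1 and 28.8%, the last being replicate C of the deeper class, so this difference and depth cannot be told apart.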

How the results depend on the processing

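Counting error is small for the members, so the limits lie in scaling, in the 2 body column libraries and in depth class. Repeating the selection returned 129 of the 200 members with library size alone, 119 from the 12 deeper libraries and 88 from the 8 shallower ones, and 146 to 182 under the other alternatives; leaving out 1 library returned 167 to 194.

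Against the body column, members called in eESC_10d, gESC_10d and ISC_high (64, 66 and 86 as reported) were 145, 115 and 170 with library size alone, 37, 30 and 53 without a filter, and 99, 105 and 132 at a mean of at least 5 CPM; the cause of the last 2 was not tested. DESeq2, median-of-ratios factors, the most abundant contig and a fit of only the groups compared stayed within 1.5 times. Leaving out 1 library gave 28 to 70, 30 to 68 and 58 to 112. Body libraries lay below all sorted ones in 20 members and above in 3; these counts were 80 and 0 with library size alone and 30 and 1 with median-of-ratios factors. With library size alone, the fold changes of c22049_g1, c15091_g1 and c18832_g1 in ISC_high turned to 0.077, 0.14 and 0.021 on the log2 scale.

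For contig usage, a change of at least 20 points left 7, 7, 11, 5, 14 and 11 members in the first 6 comparisons. The limma test gave 34 in eESC_10d against ISC_high. A fit of only the groups compared gave 27 in eESC_10d against gESC_10d, 13 in eESC_3d against gESC_3d and 2 between times in gESC. The depth term gave 13 between the gates, 6 between times in eESC and 2 in gESC, and 19 in eESC_3d against gESC_3d. Leaving out 1 library gave 11 to 16, 19 to 24, 21 to 26, 19 to 25, 25 to 37, 16 to 27 and 1 to 23.

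With the replicate letter as a block, members called were 12, 20, 24, 17, 32 and 24 in the first 6 comparisons and 4 between times in gESC. In gESC_10d against ISC_high, where all same-letter libraries correlated positively, the block changed no named call. In the other 6 the correlations ran from -0.42 to 0.355. In none of the 7 did every library correlate best with its own letter, so the letters are not shown to pair libraries. No paired analysis was possible for the body column because its libraries share no letter with the sorted ones. Of the values of named members under the alternatives, 552 counted as unchanged, 75 lost the call and 3 reversed. Unchanged means the same direction and side of the threshold for a tested value. For a mean CPM it means a shift smaller than the SD over the sorted libraries.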

Other observations

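Called changes of contig were also seen in 4 members whose contigs are not described above; these were chosen after their values were seen. In c22584_g1, the last of the 10 steadiest, contig c22584_g1_i01 held 100% of the total in all 4 eESC_10d libraries and 89.6 ± 1.08% in gESC_10d (n = 3; edgeR adjusted p 1.6e-18). The body columns held 100% in the actin line and 88.1% in the cnnos1 line, with 1 library each. In c21556_g1, also among the 10 steadiest, contig c21556_g1_i01 held 61.1 ± 6.93% in eESC_10d and 86.8 ± 1.72% in ISC_high (n = 4 each; edgeR adjusted p 2.8e-08). Its body columns held 76.0% in the actin line and 82.1% in the cnnos1 line. In c21095_g1, for whose total groups accounted for 9.06% of the variance, contig c21095_g1_i02 held 20.1 ± 4.58% in eESC_10d and 0.51 ± 0.66% in ISC_high (n = 4 each; edgeR adjusted p 4.5e-09). In c23840_g1, contig c23840_g1_i02 held 21.1 ± 0.97% in eESC_10d and 1.15 ± 0.19% in ISC_high (n = 4 each; edgeR adjusted p 1.5e-13). All of these sorted libraries are of the deeper class, but the populations compared came from different lines. Those compared with ISC_high also differed from it in days unfed.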
